A study of Mus musculus with 16 samples.

Results

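The lysosomal proton pump, the cathepsins and the Lamp membrane proteins were examined as a set of genes taken by name, every non-control gene name on the array that began with Atp6v0, Atp6v1, Atp6ap or Lamp followed by a digit, or that was Cts followed by a single letter. The names held 47 of the 30214 genes on the array, namely 9 V0 subunits and 13 V1 subunits of the pump, 3 accessory proteins, 18 cathepsins and 4 Lamp genes. Of these, 36 were measured well enough to be tested, beside 19365 genes tested in all. AML12 cells, a mouse hepatocyte line derived from the liver of a mouse carrying a transforming growth factor alpha transgene, were infected with doxycycline-inducible lentiviral vectors, the control vector with a scramble shRNA and the other with an shRNA that targets eIF6, and selected with puromycin. Both lines therefore carried a vector, received doxycycline and were stimulated with insulin for 1 h. The labels gave the insulin dose as 100 nM in 1 place and 100 mM in another. eIF6 is an initiation factor that keeps the large ribosomal subunit from joining the small subunit too early. RNA of a sucrose gradient was pooled into a polysomal part (the heavy fractions, with mRNAs that carry several ribosomes) and a subpolysomal part (the light fractions), and each pool was hybridised to a 1-colour Agilent array. The 4 groups were scramble polysomal, scramble subpolysomal, eIF6 shRNA polysomal and eIF6 shRNA subpolysomal RNA, with 4 biological replicates each, 16 arrays in all. Whether a line was a pool of infected cells or a clone was not given in the sources used here.

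The proton pump, or V-ATPase, uses the energy of ATP to drive protons into lysosomes and other compartments. Its V1 part faces the cytosol and splits ATP, and its V0 part sits in the membrane and carries the protons. Cathepsins are proteases, most of which become active in the acid interior that the pump creates, and the Lamp proteins are abundant glycoproteins of the lysosomal membrane. The transcription factor TFEB and its relatives act on many lysosomal genes through a short promoter motif built on the E-box CACGTG.

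Eif6 mRNA itself, the target of the shRNA, fell by 1.05 ± 0.079 (SE) on the log2 scale in polysomal RNA of eIF6 shRNA cells (limma, adjusted p = 1.45e-07), whereas in subpolysomal RNA the difference was 0.02. Between 20177 and 24952 probes were well above background on an array, arrays of the same group correlated at 0.988 or more over all genes, and no spot was saturated. Of 10 hepatocyte markers 10 were measured, 2 of them higher in each fraction of eIF6 shRNA cells, and albumin was dim, well above background on 7 of 16 arrays. Markers of fibroblasts and stellate cells differed strongly between the lines. All 9 were measured, 8 were lower in polysomal and 7 in subpolysomal RNA of eIF6 shRNA cells. Their summed level ran from 17.39 to 18.13 (log2) on scramble polysomal arrays and from 14.82 to 15.48 on eIF6 shRNA polysomal arrays, and in subpolysomal RNA from 17.07 to 17.16 and from 15.92 to 16.22. Every comparison between the lines given here was made across that difference, and its part in the results was not tested. In a line, fewer cells of a type and less RNA per cell cannot be told apart.

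In polysomal RNA, 10 of the 36 measured genes were higher in eIF6 shRNA cells and 1, Ctsw, was lower, at an adjusted p under 0.05 over all genes. Of all genes tested, 11.1% were called higher and 10.7% lower. The count of members was 6 without replicate 2, where 7.33% of all genes were called higher, and 18 without replicate 4, where 14.5% were. The median change of the 36 genes was 0.29 on the log2 scale against 0.02 over all genes, and 29 of 36 (80.6%) lay above 0 against 52.1% of all genes. These changes are relative to the other mRNAs of the same fraction. When the arrays were scaled to the 7 spike-in probes that were detected throughout, the median of all genes moved to -0.47, the median of the set to -0.20, none of the 36 genes was called higher, and Ctsw and Ctsg were called lower. Of all genes, 0.522% were then called higher and 5.45% lower. In subpolysomal RNA, 11 genes were higher and Ctsw was again lower, beside 11.8% and 12.3% of all genes. Without replicate 1 the count was 6 higher and 0 lower, beside 6.80% and 7.66% of all genes, and without replicate 2 or 3 it was 7 higher, beside 7.37% and 7.35%. The median there was 0.28 against 0.02 over all genes. Under spike-in scaling the subpolysomal median of all genes was -0.23 and that of the set 0.07, with 0 genes called in either direction, beside 0.222% of all genes higher and 1.78% lower. The comparisons in the 2 fractions rest on different arrays. The 2 pools may come from the same gradients, however, so the comparisons may not be independent. Of the 13 genes called in either fraction, 9 were higher in both, Ctsw was lower in both, Atp6ap2 was called in polysomal RNA alone, and Atp6v1e1 and Atp6v1g2 in subpolysomal RNA alone.

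**Figure D1:**
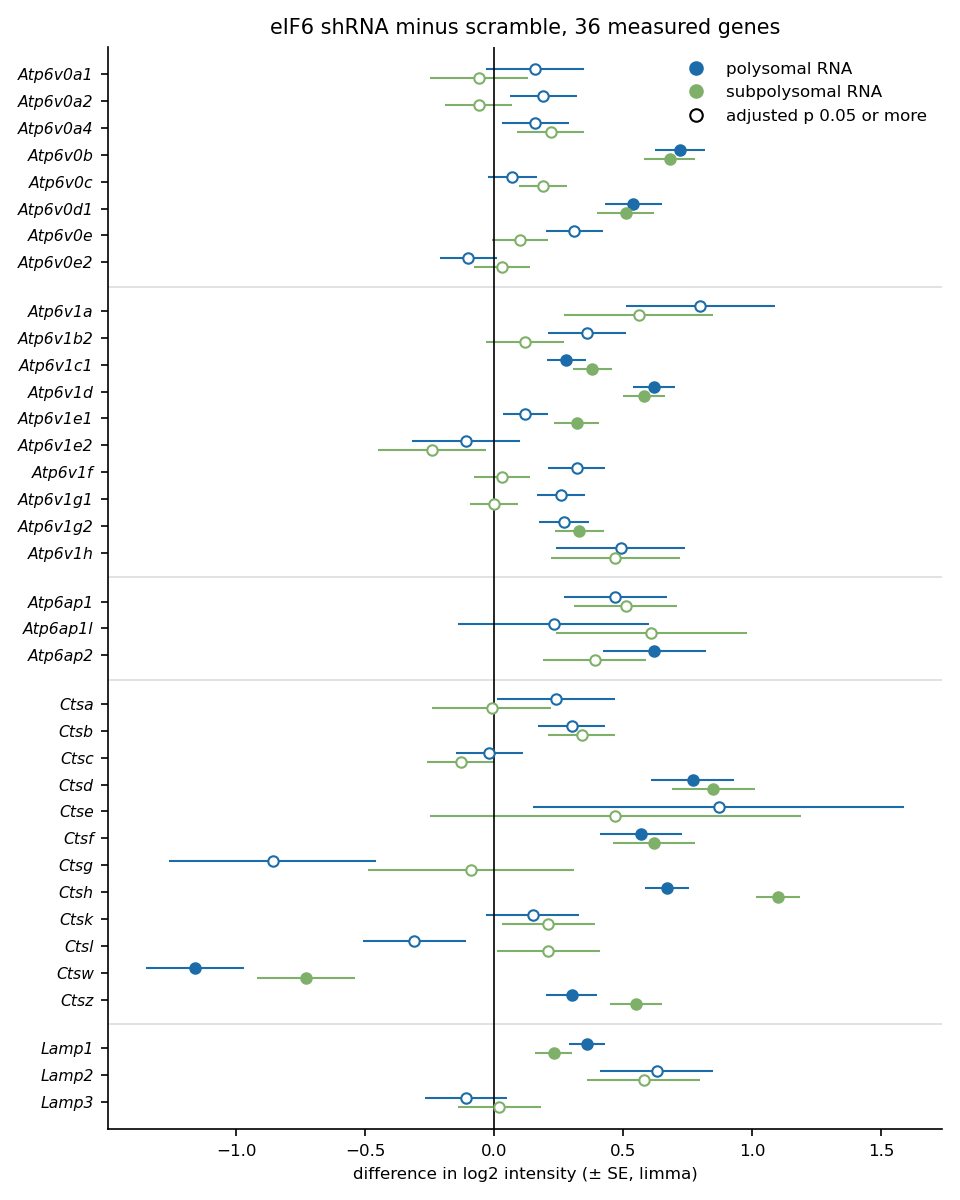
Difference in log2 intensity between eIF6 shRNA and scramble cells for the 36 measured genes, with the standard error of the limma fit, in polysomal RNA (blue) and subpolysomal RNA (green); filled points have an adjusted p under 0.05, and grey lines part V0 subunits, V1 subunits, accessory proteins, cathepsins and Lamp genes. Most points lie to the right of 0, up to 1.10 for Ctsh in subpolysomal RNA, and Ctsw lies to the left in both fractions.

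Because several members moved the same way, their promoters were searched for the E-box CACGTG, which reads the same on both strands, in the 250 bases before and 50 bases after each gene's start in the RefSeq promoter table (GRCm38.p6). Of the 47 genes 36 had a promoter in the table, and 9 of these (25%) held the motif, beside 8.09% of 27025 genes in the table. The members without an entry were Atp6ap1l, Atp6v0a2, Atp6v0d2, Atp6v1b2, Atp6v1c1, Atp6v1g1, Atp6v1h, Ctsb, Ctse, Ctsh and Ctsw. The longer form TCACGTGA, which contains the E-box, was found in 5 of the 36 (13.9%) and in 1.12% of all genes. Of the 26 measured genes with an entry, called or not, 9 (34.6%) held the E-box. Of the 10 genes called in either fraction that had an entry, 5 held it, among them Lamp1 with 4 copies. The set was taken by lysosomal names, and the table includes genes that were not measured here. These shares therefore do not describe the change between the lines. Whether the motif goes with that change was not tested. A match describes these letters and is not evidence that a factor binds there. The 30 bases around the motifs of all 9 genes are shown with every E-box in capitals, 5′ to 3′ on the strand of the gene, first the 5 genes that were called.
Atp6v0b, chr4:117887339-117887368, minus strand: ggtCACGTGgggtcggcgcatCACGTGcgc
Atp6v0d1, chr8:105566050-105566079, minus strand: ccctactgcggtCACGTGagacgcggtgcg
Ctsd, chr7:142388048-142388077, minus strand: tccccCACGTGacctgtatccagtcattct
Ctsd, chr7:142387908-142387937, minus strand: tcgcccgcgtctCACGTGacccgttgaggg
Ctsf, chr19:4855074-4855103, plus strand: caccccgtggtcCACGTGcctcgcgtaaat
Lamp1, chr8:13159096-13159125, plus strand: atatCACGTGgtccagcgccCACGTGatgc
Lamp1, chr8:13159128-13159157, plus strand: actggCACGTGaccacatCACGTGcggaac
Atp6v0e, chr17:26676387-26676416, plus strand: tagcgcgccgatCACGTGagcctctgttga
Atp6v1a, chr16:44139373-44139402, minus strand: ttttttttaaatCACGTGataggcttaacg
Ctsa, chr2:164833758-164833787, plus strand: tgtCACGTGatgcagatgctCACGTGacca
Ctsl, chr13:64370739-64370768, minus strand: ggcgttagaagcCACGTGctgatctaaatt
The E-boxes of Lamp1 began 61, 45, 28 and 15 bases before the start of the gene, those of Atp6v0b 36 and 18 bases, and that of Atp6v0d1 3 bases before it. The changes of the 4 genes that held the motif and were not called ran in polysomal RNA from -0.31 for Ctsl to 0.80 for Atp6v1a.

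Among the V0 subunits, 8 of 9 were measured and 2 rose. In the lines that follow the 4 values of a group are normalised log2 intensities of replicates 1 to 4, a difference of 1 being a doubling. Atp6v0b, which encodes a proteolipid subunit of the proton-carrying ring (probe at chr4:117557184-117557243, mm9, minus strand), read 12.43, 12.45, 12.48 and 12.17 on scramble polysomal arrays and 13.22, 13.25, 13.03 and 12.92 on eIF6 shRNA polysomal arrays. Its subpolysomal values were 11.64, 11.65, 11.75 and 11.82 in scramble cells and 12.48, 12.48, 12.28 and 12.35 in eIF6 shRNA cells. In each fraction all 4 eIF6 shRNA arrays lay above all 4 scramble arrays. The change was 0.72 ± 0.098 (SE) in polysomal RNA (1.65-fold, adjusted p = 6.09e-05) and 0.68 ± 0.098 in subpolysomal RNA (1.60-fold, adjusted p = 0.00013). Atp6v0d1, the d subunit that links V0 to the central stalk (chr8:108048778-108048837, minus strand), read 11.64, 11.58, 11.57 and 11.74 in scramble and 12.19, 12.33, 11.91 and 12.25 in eIF6 shRNA polysomes. In subpolysomal RNA it read 10.26, 10.66, 10.7 and 10.61 against 11.10, 10.92, 11.12 and 11.15. The groups did not overlap in either fraction, and the changes were 0.54 ± 0.11 (adjusted p = 0.00226) and 0.51 ± 0.11 (adjusted p = 0.00351). Without the arrays of replicate 1 the subpolysomal change was 0.40 and no longer called (adjusted p = 0.0579). The other 6 V0 genes were not called in polysomal RNA, with changes from -0.10 (Atp6v0e2) to 0.31 (Atp6v0e, adjusted p = 0.0546), nor in subpolysomal RNA, with changes from -0.06 to 0.22. They were 3 isoforms of the a subunit whose names fit the set (Atp6v0a1, Atp6v0a2 and Atp6v0a4), the proteolipid Atp6v0c and the small e subunits. Atp6v0d2 did not pass the detection filter.

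**Figure D2:**
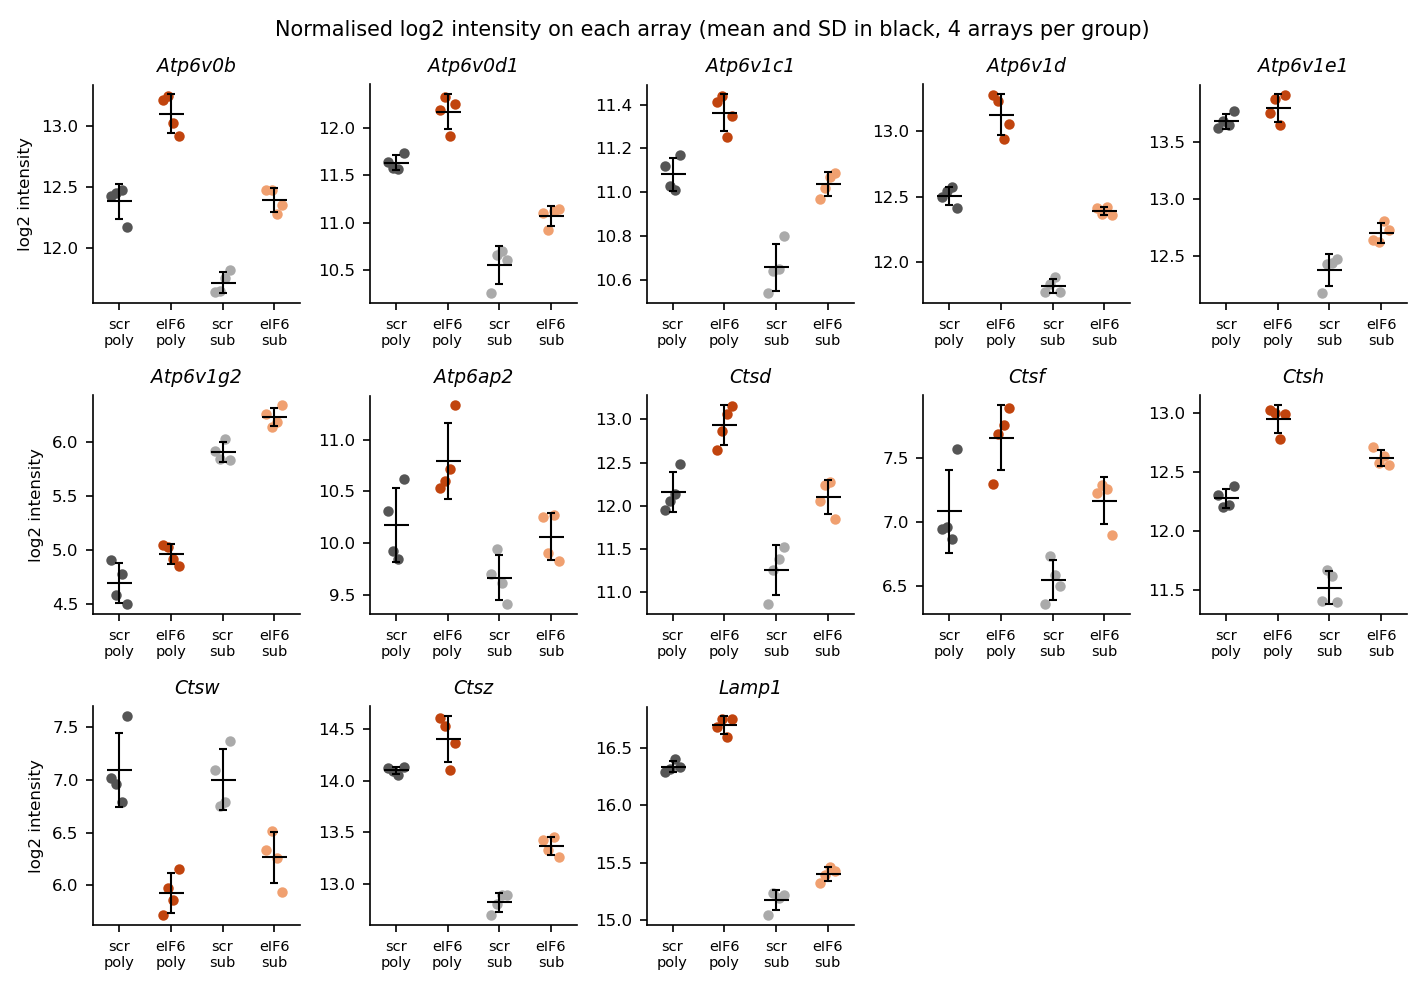
Normalised log2 intensity on each of the 4 arrays of each group for the 13 genes called in polysomal or subpolysomal RNA (scr, scramble; eIF6, eIF6 shRNA; poly, polysomal; sub, subpolysomal), with mean and SD in black; each panel has its own scale. In Ctsh the 4 eIF6 shRNA arrays of each fraction lie above the 4 scramble arrays, from 12.78 up against 12.38 or less in polysomal RNA, and in Ctsw they lie below.

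Of the V1 subunits 10 of 13 were measured. Atp6v1c1 and Atp6v1d were called higher in polysomal RNA, and these with Atp6v1e1 and Atp6v1g2 in subpolysomal RNA. Atp6v1d, part of the rotating stalk of V1 (chr12:79943993-79944052, minus strand), read 12.50, 12.54, 12.57 and 12.41 in scramble polysomes and 13.28, 13.23, 12.94 and 13.06 in eIF6 shRNA polysomes. Its subpolysomal values were 11.77, 11.83, 11.88 and 11.77 against 12.41, 12.37, 12.42 and 12.36. All arrays of eIF6 shRNA cells were the higher ones in each fraction, by 0.62 ± 0.081 (1.54-fold, adjusted p = 3.96e-05) and 0.58 ± 0.081 (1.49-fold, adjusted p = 0.000104). Atp6v1c1, the C subunit, which holds V1 and V0 together (chr15:38621773-38621832, plus strand), read 11.12, 11.03, 11.01 and 11.17 against 11.41, 11.44, 11.25 and 11.35 in polysomal RNA. In subpolysomal RNA its values were 10.54, 10.64, 10.65 and 10.80 against 10.97, 11.02, 11.07 and 11.09. The groups did not overlap, and the changes were small, 0.28 ± 0.076 (adjusted p = 0.0154) and 0.38 ± 0.076 (adjusted p = 0.00191). Without replicate 1, 2 or 3 the polysomal change was 0.28, 0.23 and 0.29, with adjusted p of 0.0973, 0.184 and 0.0785.

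Atp6v1e1 and Atp6v1g2, subunits of the outer stalks of the pump, were called in subpolysomal RNA only. Atp6v1e1 (chr6:120745623-120745682, minus strand) read 12.18, 12.43, 12.44 and 12.48 in scramble and 12.64, 12.63, 12.81 and 12.73 in eIF6 shRNA subpolysomal RNA, groups that did not overlap (0.32 ± 0.087, adjusted p = 0.014). On polysomes it read 13.62, 13.68, 13.65 and 13.77 against 13.75, 13.87, 13.65 and 13.91, and these groups overlapped (0.12 ± 0.087, adjusted p = 0.421). Without replicate 1, 2 or 3 its subpolysomal change was 0.28, 0.36 and 0.31 (adjusted p = 0.109, 0.063 and 0.0844). Atp6v1g2, the G isoform known mainly from neurons, read 5.92, 5.84, 6.03 and 5.83 against 6.26, 6.14, 6.19 and 6.34 in subpolysomal RNA. Its eIF6 shRNA arrays were all higher there (0.33 ± 0.096, adjusted p = 0.0222), with 0.33, 0.34 and 0.38 without replicate 1, 2 or 3 and adjusted p of 0.0882, 0.0993 and 0.0642. This value is the mean of 2 probes, neither of which was called by itself in subpolysomal RNA (0.26 and 0.39, adjusted p = 0.226 and 0.109). It was not called either with the brighter probe alone (0.39, adjusted p = 0.105) or when arrays were set to a common 75th percentile (0.28, adjusted p = 0.125). On polysomes it read 4.91, 4.58, 4.78 and 4.50 against 5.05, 5.03, 4.92 and 4.85, groups that overlapped by a single array (0.27 ± 0.096, adjusted p = 0.0626). Of its probes, A_52_P374839 was called higher on polysomes (0.44, adjusted p = 0.0439) and the other had a change of 0.09. The remaining V1 genes were not called in either fraction. Their polysomal changes ran from -0.11 for Atp6v1e2, which was well above background on 12 of 16 arrays, to 0.80 ± 0.29 for Atp6v1a, the ATP-splitting A subunit (adjusted p = 0.0661). Atp6v1a was the mean of 2 probes. By itself A_55_P2131279 was called higher on polysomes (0.88, adjusted p = 0.0248) and A_55_P2169391 was not (0.73, adjusted p = 0.162). Neither was called in subpolysomal RNA (0.53 and 0.59, adjusted p = 0.164 and 0.237). Atp6v1f (0.32, adjusted p = 0.052) and Atp6v1g1 (0.26, adjusted p = 0.0586) lay close to the threshold. Atp6v1b1, Atp6v1c2 and Atp6v1g3 did not pass the detection filter.

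Of the accessory proteins, Atp6ap2, also known as the prorenin receptor (chrX:12193624-12193683, plus strand), was called higher on polysomes. It read 10.31, 9.92, 9.85 and 10.62 in scramble and 10.53, 10.60, 10.72 and 11.33 in eIF6 shRNA polysomes, where the groups overlapped through replicate 4 of the scramble cells (0.62 ± 0.20, adjusted p = 0.0398). Within the 4 slides, eIF6 shRNA cells were higher on 3. Without replicate 1, 2 or 3 the change was 0.75, 0.60 and 0.54 and was not called (adjusted p = 0.0745, 0.13 and 0.205). In subpolysomal RNA Atp6ap2 read 9.70, 9.94, 9.61 and 9.41 against 10.25, 9.90, 10.27 and 9.83 (0.39 ± 0.20, adjusted p = 0.181). Atp6ap1, the Ac45 accessory subunit, had changes of 0.47 and 0.51 that did not pass the test (adjusted p = 0.129 and 0.0842). Atp6ap1l was well above background on 3 of 16 arrays.

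Cathepsins showed the largest changes of the set in each direction. Of 18, 12 were measured, 4 were higher and 1 was lower in each fraction. Ctsh, an aminopeptidase of the cysteine protease family (chr9:89970828-89970887, plus strand), read 12.31, 12.21, 12.22 and 12.38 in scramble and 13.03, 13, 12.78 and 12.99 in eIF6 shRNA polysomes. Its subpolysomal values were 11.41, 11.67, 11.62 and 11.40 against 12.71, 12.58, 12.64 and 12.56. The groups were far apart in each fraction, and the changes were 0.67 ± 0.086 (1.59-fold, adjusted p = 3.77e-05) and 1.10 ± 0.086 (2.14-fold, adjusted p = 3.76e-07). Ctsd, the main aspartic protease of lysosomes, was the mean of 2 probes and read 11.95, 12.06, 12.14 and 12.48 against 12.64, 12.87, 13.06 and 13.16 in polysomal RNA. In subpolysomal RNA it read 10.86, 11.26, 11.38 and 11.52 against 12.05, 12.24, 12.27 and 11.85. No eIF6 shRNA array of Ctsd fell within the scramble range of its fraction, with changes of 0.77 ± 0.16 (1.71-fold, adjusted p = 0.00268) and 0.85 ± 0.16 (1.80-fold, adjusted p = 0.00147). Each of its probes rose by itself in polysomal RNA, by 0.63 ± 0.19 (chr7:149561962-149562021) and 0.92 ± 0.22 (chr7:149566847-149568505).

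Ctsz, a carboxypeptidase (chr2:174253228-174253287, minus strand), rose more clearly in subpolysomal than in polysomal RNA, although the difference between the changes was not called. It read 12.70, 12.81, 12.89 and 12.89 against 13.43, 13.33, 13.45 and 13.26 in subpolysomal RNA (0.55 ± 0.099, adjusted p = 0.00093). On polysomes it read 14.12, 14.09, 14.05 and 14.13 against 14.60, 14.53, 14.10 and 14.36 (0.30 ± 0.099, adjusted p = 0.0424). The subpolysomal groups did not overlap, and the polysomal groups met at replicate 3 of the eIF6 shRNA cells. Without replicate 1, 2 or 4 the polysomal change was 0.24, 0.25 and 0.33 and was not called (adjusted p = 0.242, 0.258 and 0.0704). Ctsf, a cysteine protease (chr19:4860454-4860513, plus strand), read 6.95, 6.96, 6.87 and 7.57 against 7.30, 7.69, 7.76 and 7.89 on polysomes (0.57 ± 0.16, adjusted p = 0.0199). Its subpolysomal values were 6.36, 6.74, 6.59 and 6.50 against 7.23, 7.29, 7.26 and 6.90 (0.62 ± 0.16, adjusted p = 0.0119). The polysomal groups overlapped through replicate 4 of the scramble cells, and the subpolysomal groups did not. Ctsf was not called in polysomal RNA without replicate 2 or 3 (0.52 and 0.47, adjusted p = 0.131 and 0.187), nor in subpolysomal RNA without replicate 1, 2 or 3 (0.54, 0.65 and 0.61, adjusted p = 0.0765, 0.0605 and 0.0774).

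Ctsw, a cysteine protease known from natural killer and cytotoxic T cells, was the only measured gene of the set called lower. Its probe lies at chr19:5465315-5465374 on the minus strand and was well above background on all 16 arrays. It read 7.02, 6.96, 6.79 and 7.60 in scramble and 5.72, 5.98, 5.86 and 6.16 in eIF6 shRNA polysomes. In subpolysomal RNA it read 7.09, 6.75, 6.79 and 7.37 against 6.34, 6.52, 6.26 and 5.94. All eIF6 shRNA arrays lay below all scramble arrays of the same fraction, and the changes were -1.16 ± 0.19 (adjusted p = 0.000285) and -0.73 ± 0.19 (adjusted p = 0.00994). Without replicate 1 the subpolysomal change was also -0.73 but was not called (adjusted p = 0.0712). Ctsg, a serine protease of neutrophil granules, was well above background on 7 of 16 arrays and had a polysomal change of -0.86 ± 0.40 (adjusted p = 0.161). Ctsb, the abundant cysteine protease of liver lysosomes, had changes of 0.30 and 0.34 (adjusted p = 0.142 and 0.0836). Ctsl had -0.31 and 0.21 (adjusted p = 0.328 and 0.502), and Ctsk, the collagen-splitting protease of osteoclasts, 0.15 and 0.21. Ctsa, Ctsc and Ctse were not called either. The 6 cathepsins that did not pass the detection filter were Ctsj, Ctsm, Ctsq and Ctsr, of a family found in the rodent placenta, and Ctso and Ctss.

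Lamp1, the main glycoprotein of the lysosomal membrane (chr8:13175277-13175336, plus strand), read 16.29, 16.32, 16.41 and 16.34 in scramble and 16.69, 16.76, 16.60 and 16.76 in eIF6 shRNA polysomes. In subpolysomal RNA its values were 15.04, 15.23, 15.19 and 15.22 against 15.32, 15.39, 15.46 and 15.43. The replicates were tight and the groups did not overlap, so that changes of 0.36 ± 0.071 (1.29-fold, adjusted p = 0.0015) and 0.23 ± 0.071 (1.17-fold, adjusted p = 0.0273) were called. Without replicate 1, 2 or 3 the subpolysomal change was 0.21, 0.25 and 0.22, with adjusted p of 0.15, 0.117 and 0.144. Lamp2 had changes of 0.63 ± 0.22 and 0.58 ± 0.22 as the mean of 2 probes, which are not described singly here, and was not called (adjusted p = 0.0612 and 0.0757). With arrays set to a common 75th percentile its polysomal change was 0.66 and was called (adjusted p = 0.0412). Lamp3, known from dendritic cells, had changes of -0.11 and 0.02, and Lamp5 did not pass the detection filter.

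The change in translational efficiency was taken as the polysomal change minus the subpolysomal change. None of the 36 genes was called in either direction by limma, beside 0.403% of all genes called higher and 1.11% called lower. Of all 19365 genes, 1422 were lower and 999 higher at an unadjusted p under 0.05. In the set 1 gene was lower and 0 were higher. That gene was Ctsh, whose rise was larger in subpolysomal than in polysomal RNA (-0.43 ± 0.12, adjusted p = 0.116). Across the set the median was -0.01 against 0.02 over all genes, with 18 genes above 0 and 18 below. For the 13 genes called in either fraction the values ran from -0.43 to 0.23, with standard errors from 0.10 to 0.29. Ctsl had -0.51 ± 0.28. For Ctsg no efficiency is given, since it was not well above background on any subpolysomal array. Ctse, well above background on 11 of 16 arrays, had the widest standard error (0.40 ± 1.0). Under spike-in scaling the median of the set was -0.21 and that of all genes -0.22.

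Most of the set sat on polysomes in each line. In scramble cells 26 of 36 genes were higher in polysomal than in subpolysomal RNA and 1 was lower, beside 31.7% and 28.4% of all genes tested. In eIF6 shRNA cells 25 were higher and 2 lower, beside 32.1% and 28.7% of all genes. The median difference was 0.73 in scramble and 0.74 in eIF6 shRNA cells, against 0.04 and 0.03 over all genes. Of these genes, 25 were called higher on polysomes in both lines. The median intensity of the 36 genes was 10.85 to 11.02 on scramble polysomal arrays and 10.96 to 11.34 on eIF6 shRNA polysomal arrays, against 10.19 to 10.47 and 10.54 to 10.67 on the subpolysomal arrays. Because the arrays were made equal in total signal, a difference between fractions is relative to the average mRNA. Scaled to the spike-in probes, the median of all genes lay 1.52 higher on polysomes in scramble and 1.30 in eIF6 shRNA cells, with 34 and 33 genes of the set called higher and 0 lower. Of all genes, 69.3% and 58% were then called higher. When each fraction was normalised by itself, 34 genes of the set were called higher in each line and 0 lower, beside 81.5% and 79.6% of all genes called higher.

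Genes with a clear polysomal excess were found among V0 and V1 subunits, cathepsins and Lamp genes. Lamp1 was 1.17 ± 0.071 higher on polysomes in scramble and 1.30 ± 0.071 in eIF6 shRNA cells (adjusted p = 4.19e-09 and 1.73e-09), and its polysomal and subpolysomal arrays did not overlap. Atp6v0c, the proteolipid of the proton-carrying ring, had differences of 1.31 ± 0.094 and 1.19 ± 0.094, and Atp6v1e1 of 1.30 ± 0.087 and 1.09 ± 0.087. Ctsz had 1.27 ± 0.099 and 1.03 ± 0.099, Ctsb 1.14 ± 0.13 and 1.10 ± 0.13, and Ctsl 1.36 ± 0.20 and 0.84 ± 0.20. These 6 genes were higher on polysomes in both lines at an adjusted p under 0.05. Atp6v0a1, Atp6v1a, Atp6v1b2, Atp6ap1, Atp6ap1l, Ctsc, Ctse and Ctsw were not called in either line. Ctsg was measured in scramble polysomes on 4 of 4 arrays and was not well above background on any of the 4 scramble subpolysomal arrays. Set against the lowest signal well above background, its mean polysomal level there was at least 1.74-fold higher, a bound that was not itself tested. The 4 scramble polysomal values of Ctsg ran from 3.54 to 5.81. Since Ctsg passed the detection filter through polysomal arrays alone, its place among the 26 genes called higher in scramble cells is no independent support.

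**Figure D3:**
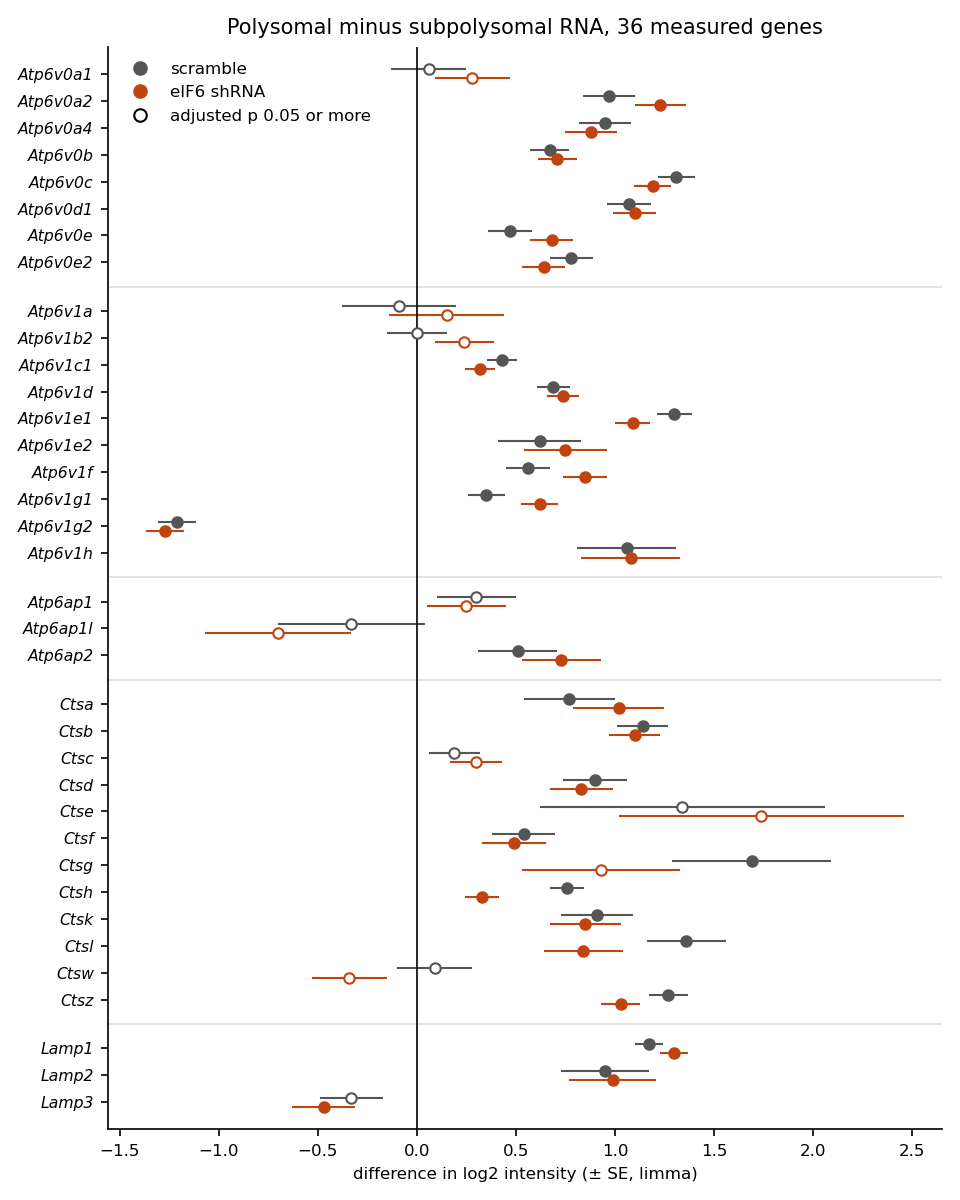
Polysomal minus subpolysomal log2 intensity of the 36 measured genes in scramble cells (grey) and eIF6 shRNA cells (orange), with the standard error of the limma fit; filled points have an adjusted p under 0.05. Most points lie between 0.3 and 1.4, Atp6v1g2 lies at -1.21 and -1.27, and the subpolysomal values of Ctsg were not well above background.

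Atp6v1g2 and Lamp3 went the other way. Atp6v1g2 had a polysomal minus subpolysomal difference of -1.21 ± 0.096 in scramble cells (adjusted p = 6.39e-08) and of -1.27 ± 0.096 in eIF6 shRNA cells (adjusted p = 5.06e-08). All polysomal arrays read 5.05 or less and all subpolysomal arrays 5.83 or more. Scaled to the spike-in probes its differences were 0.02 and -0.27, which is -1.5 and -1.57 relative to the median of all genes. Lamp3 had -0.33 ± 0.16 in scramble cells (adjusted p = 0.0818) and -0.47 ± 0.16 in eIF6 shRNA cells (adjusted p = 0.018). Under spike-in scaling the Lamp3 difference in eIF6 shRNA cells was 1.25, or -0.05 relative to all genes. Without replicate 1, 2 or 3 it was -0.39, -0.41 and -0.47 and was not called (adjusted p = 0.129, 0.103 and 0.0511).

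Of the measured genes 7 were read by 2 probes each. For Atp6v1g2, the member with the clearest subpolysomal excess, the probes lie in different places of the gene. They are also assigned to different targets, A_52_P374839 to a RefSeq mRNA and A_55_P2089799 to an Ensembl transcript. The mean of the gene may therefore mix transcripts, which was not tested. The sequences of the probes are shown because both carry that excess. Their first 30 bases, 5′ to 3′, are as follows.
Atp6v1g2, probe A_52_P374839, chr17:35374918-35374977, plus strand, mm9: aggcttctatgtgacaggatccaatattcc
Atp6v1g2, probe A_55_P2089799, chr17:35372864-35372923, plus strand, mm9: ctccggaggggaaataagacaatttgcgac
The first had a difference of -0.63 ± 0.15 in scramble cells (adjusted p = 0.00174), and the other of -1.80 ± 0.17 (adjusted p = 3.69e-07). In eIF6 shRNA cells these differences were -0.45 and -2.10. Both probes of Atp6v1g2 were therefore lower on polysomes in both lines.

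**Figure D4:**
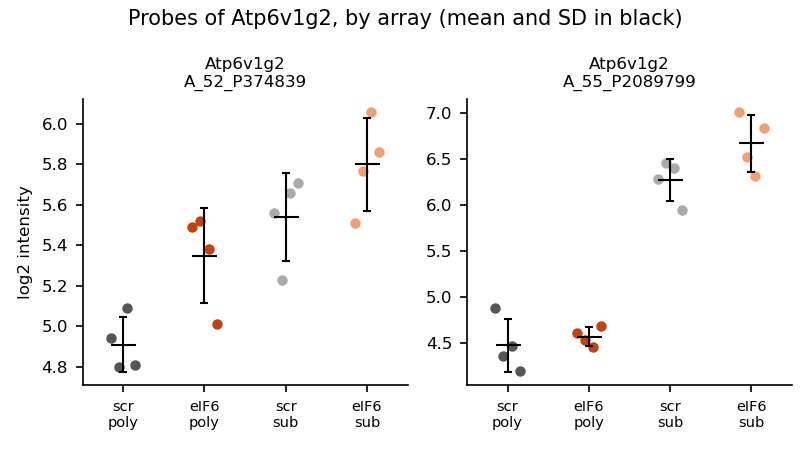
Normalised log2 intensity on each array for the probes of Atp6v1g2 (scr, scramble; eIF6, eIF6 shRNA; poly, polysomal; sub, subpolysomal), with mean and SD in black over 4 arrays. Both probes read lower on polysomes in both lines, by a difference of -0.63 for A_52_P374839 and -1.80 for A_55_P2089799 in scramble cells.

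Other lysosomal genes, in 7 lists, held 89 measured genes, none of which has a name that fits the set. In polysomal RNA 22 were higher and 5 lower in eIF6 shRNA cells (median 0.25), and in subpolysomal RNA 20 were higher and 4 lower (median 0.22). The counts were made against the same 11.1% and 10.7%, and 11.8% and 12.3%, of all genes. Of 38 other hydrolases 11 rose and 4 fell on polysomes, and 9 rose and 1 fell in subpolysomal RNA. Hexa, a subunit of beta-hexosaminidase, rose by 0.84 ± 0.079 and 0.82 ± 0.079 (adjusted p = 1.55e-06 and 2.88e-06), and Galns, which removes sulphate from keratan sulphate, by 0.76 ± 0.11 and 1.00 ± 0.11. Of 20 other membrane proteins 4 rose on polysomes, and 7 rose and 1 fell in subpolysomal RNA. Cln3, mutated in juvenile Batten disease, rose by 0.94 and 0.89, and Ctns, the cystine exporter, by 0.81 and 0.56. None of 8 other genes of the pump, its assembly factors among them, was called in limma, with 1 higher in polysomal and 3 in subpolysomal RNA at an unadjusted p under 0.05. At that p, 3238 and 3524 of all 19365 genes were higher. Of 5 activator and lipid transfer proteins 1 rose and 1 fell on polysomes, and 2 rose and 1 fell in subpolysomal RNA. Grn, the progranulin gene, rose by 0.70 and 0.76, and Gm2a, the activator of GM2 ganglioside breakdown, had changes of -0.56 and -0.89.

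Of 5 measured cystatins, which inhibit cathepsins, 2 rose on polysomes, namely Cst6 (0.81) and Cstb (0.62), and Cst6 rose by 0.58 in subpolysomal RNA. Of 9 genes that sort enzymes to lysosomes, Gnptab and Gnptg, subunits of the enzyme that makes the mannose 6-phosphate tag, rose on polysomes by 0.25 and 0.34, and none was called in subpolysomal RNA, where 0 were higher and 0 lower by limma with 1 of each at an unadjusted p under 0.05. At that p, 3524 of all 19365 genes were higher and 3386 lower in subpolysomal RNA. Of 4 measured transcription factors of lysosomal genes, Tfeb rose by 0.90 ± 0.11 on polysomes (adjusted p = 1.52e-05) and by 0.65 ± 0.11 in subpolysomal RNA (adjusted p = 0.000411). Its relative Mitf had a subpolysomal change of -0.52 ± 0.13 (adjusted p = 0.00878) and Tfe3 changes of 0.03 and 0.01. Zkscan3, described as a repressor of lysosomal genes, rose by 0.35 ± 0.098 on polysomes (adjusted p = 0.0164). In translational efficiency 2 of the 89 genes were lower, Acp5 (-0.65, adjusted p = 0.0172) and Aga (-0.71, adjusted p = 0.0256), and 1 was higher, Gla (0.61, adjusted p = 0.0369). Of all genes, 1.11% were called lower and 0.403% higher in efficiency. Of osteoclast markers, cells in which Ctsk and the pump are abundant, 3 of 5 were measured and none was called. At an unadjusted p under 0.05, 1 was higher in polysomal and 0 in subpolysomal RNA, beside 3238 and 3524 of all 19365 genes. Calcr and Dcstamp were well above background on no array. Of macrophage markers 7 of 10 were measured, 3 were lower on polysomes, Csf1r (-1.67), Aif1 (-1.18) and Itgam (-0.46), and Csf1r and Aif1 were also lower in subpolysomal RNA. Their summed level ran from 12.05 to 12.44 on scramble and from 12.10 to 12.32 on eIF6 shRNA polysomal arrays, but nearly all of that sum is Cd14, whose polysomal change was 0.06, so that the sum does not show the list's change. The part of these markers in the results was not tested. By their best probe, Csf1r, Itgam, Cd14 and Fcer1g of this list were well above background on 16 of 16 arrays. Aif1 was so on 14, Emr1 on 12, Ptprc on 8, Tyrobp on 1 and Lyz2 on 0.

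**Figure D5:**
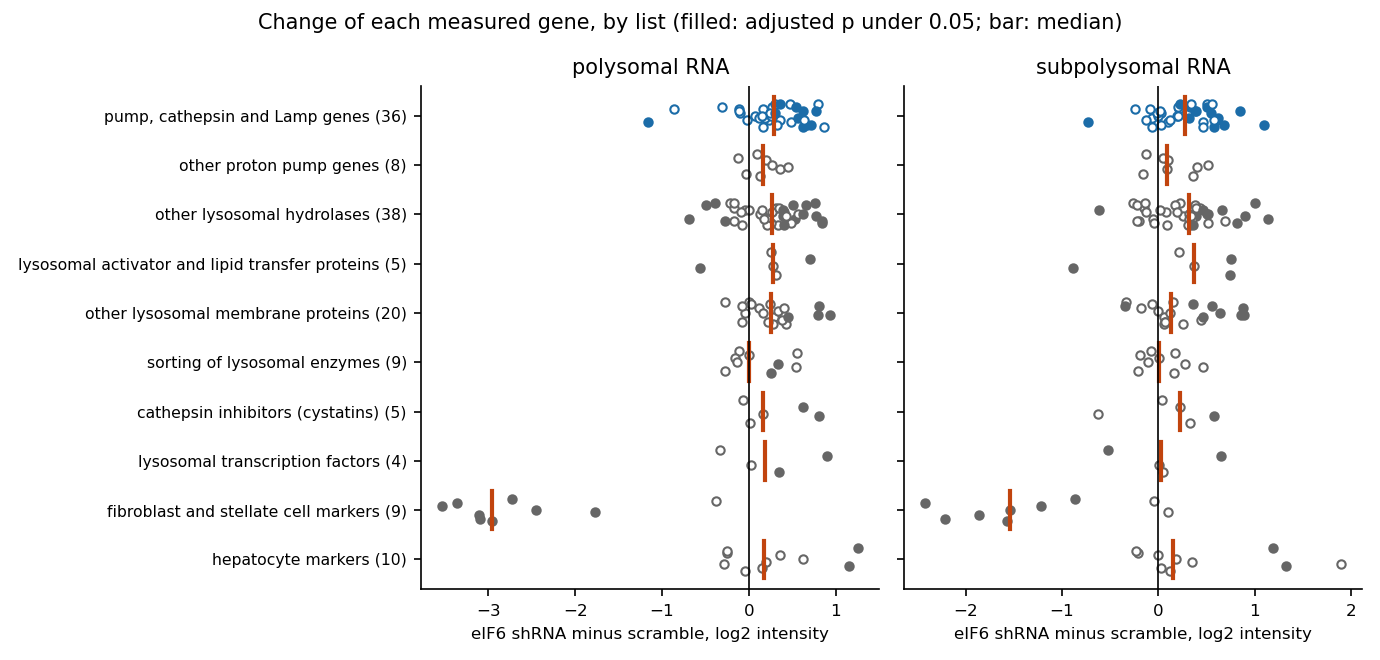
Change of each measured gene in polysomal (left) and subpolysomal RNA (right), eIF6 shRNA minus scramble, for the pump, cathepsin and Lamp genes (blue) and for other lists (grey), with the number of genes in brackets; filled points have an adjusted p under 0.05 and the orange bar is the median. The medians of the set are 0.29 and 0.28, and fibroblast and stellate cell markers reach -3.53 on polysomes.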

How the data were processed

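Polysomal and subpolysomal RNA of insulin-stimulated AML12 cells was hybridised by the authors to 16 Agilent 1-colour arrays. The deposited scanner files hold each spot's intensity, background-corrected by the authors with Feature Extraction (10.7.7.1 in the processing notes, 10.7.3.1 in the file headers), and the deposited value table holds values that the authors normalised, read here as log2. The median of every column of that table is 4.64, its centring is not stated, and its columns correlated with the scanner values of their arrays at 0.9936 or more. It served as an alternative.

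From the intensity, log2 values were taken for the 25260 probes (64.1%) that, in some group, 2 or more arrays showed well above background. They were quantile normalised over 16 arrays, and kept probes of a gene name were averaged. Quantile normalisation sets all arrays to the same distribution, so a change in the total mRNA of a fraction is removed. Differences were fitted with limma 3.58.1 in R 4.3.3 (group means, eBayes, Benjamini-Hochberg over 19365 genes, called under 0.05), over biological replicates as the methods state. Precision is limited by 4 arrays per group. Each of 4 slides held 1 array of every group. With the slide as a block, 11 genes of the set rose and 1 fell in polysomal RNA, beside 11.8% and 11.4% of all genes. In subpolysomal RNA 13 rose and 1 fell, beside 13.4% and 13.5% of all genes.

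Bounds for probes not above background set the group's mean against the lowest signal well above background on each dim array, or the probe's own where higher. By rule, values on every array are given for members called between the lines, other members by ranges and counts, members not kept by name, and of each other list the 2 called genes with the largest polysomal change. Uncalled members given singly, the genes of the polysomal excess, and Acp5, Aga, Gla, Mitf, Tfe3 and the macrophage markers named were named after their values were seen. Alternatives were other scalings, background corrections, filters, probe summaries, blocks and leaving out replicates. Members and lists were chosen with earlier results of these data known. The fit was tested on simulated data. Positions of probes are those of the files (mm9), sequences of promoters those of RefSeq (GRCm38.p6). A comparison between probes of another member is not reported here.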

Additional observations from a re-analysis of the deposited data

Results flagged for a closer look

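Of 52 groups of 4 arrays formed by the 13 called genes, 2 held an array far from the other arrays of its group, both in Ctsf. In scramble polysomal RNA replicate 4 read 7.57 on the log2 scale, above the other replicates at 6.87 to 6.96. In eIF6 shRNA subpolysomal RNA replicate 4 read 6.90, below the others at 7.23 to 7.29. Chance flags about 1 in 20 groups, but the 13 genes share the same arrays, so the 52 groups are not independent. The count therefore cannot tell chance from an array that deviates in several genes. Both flagged arrays were replicate 4 of their group. Without replicate 4 the polysomal change of Ctsf was 0.65 and the subpolysomal change 0.69.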

How the results depend on the processing

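The alternatives concerned normalisation, background, filter, probe summary, value source, block and replicates. Under each, every called comparison of a member was set against the main fit, with the efficiencies of the 13 genes called in either fraction. Of these values 1254 kept their direction and their side of the threshold, 72 kept their direction and lost the call, and 21 turned in sign. The efficiencies were uncalled in the main fit, so they kept their side by staying uncalled. Ctsw was called lower on polysomes under all 15 alternatives, and Atp6v0b, Atp6v0d1, Atp6v1d, Ctsd, Ctsh and Lamp1 were called higher under all but spike-in scaling. With spike-in scaling, 2 genes were called lower and 0 higher on polysomes, 0 and 0 in subpolysomal RNA, and 0 lower on polysomes against subpolysomes in either line, with 34 and 33 higher. Of all genes, 0.522% were then higher and 5.45% lower on polysomes, 0.222% and 1.78% in subpolysomal RNA, and 69.3% and 58% higher between the fractions. With each fraction normalised by itself 0 were lower on polysomes in either line, beside 4.64% and 4.34% of all genes. With normexp background 2 were lower in scramble cells, beside 27.6% of all genes. These counts moved by more than 1.5 times, and the cause was not tested. Signs turned under spike-in scaling for the polysomal changes of Atp6v1c1 (-0.15), Ctsz (-0.15) and Lamp1 (-0.13), for Atp6v1g2 in subpolysomal RNA (0) and between the fractions in scramble cells (0.02), for Lamp3 between the fractions in eIF6 shRNA cells (1.25), and for the efficiency of Atp6v0b (-0.17), Atp6v0d1 (-0.12), Atp6v1d (-0.16) and Lamp1 (-0.31). Relative to the median of all genes under that scaling, the polysomal changes were 0.32 for Atp6v1c1, 0.32 for Ctsz and 0.34 for Lamp1. Scaling to the 75th percentile turned Atp6v1e2 between the fractions (-0.01 in scramble and -0.07 in eIF6 shRNA cells, where the median of all genes was -0.20 and -0.23) and the efficiency of Ctsf (0.04) and Lamp1 (-0.11). Separate normalisation turned Lamp3 between the fractions in eIF6 shRNA cells (1.35) and the efficiency of Ctsf (0.03), and normexp that of Ctsf (0.03). Leaving out a replicate turned the efficiency of Atp6v0b (-0.02, without replicate 4), Atp6v0d1 (-0.13 without replicate 2 to 0.13 without replicate 1), Ctsd (0.07, without replicate 1) and Ctsf (-0.14 without replicate 3 to 0.10 without replicate 1). No efficiency was called in any of these.

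Without 1 replicate in turn, the genes called higher ranged from 6 (without replicate 2) to 18 (without replicate 4) on polysomes and from 6 (without replicate 1) to 16 (without replicate 4) in subpolysomal RNA (of all genes, 7.33% and 14.5%, and 6.80% and 16.6%), and those called lower from 1 to 1 and from 0 (without replicate 1) to 1. Of all genes, 7.84% to 12.9% were then called lower on polysomes and 7.66% to 16.8% in subpolysomal RNA. Between the fractions 1 to 3 genes of the set were lower in scramble and 1 to 3 in eIF6 shRNA cells. The shares of all genes lower there were 25.3% to 30.2% and 24.7% to 30.7%. Replicate numbers gave no steady pairing: correlations of same-numbered arrays ran from -0.21 to 0.41 over 24 pairs, 3 of them over 0.1, and 3 of 24 were the best match. Among those were replicates 1 and 4 between the polysomal arrays of the lines (0.12 and 0.41). The main fit used no pairing, although the study divided the fractions of a sucrose gradient into the 2 pools. The polysomal and subpolysomal arrays of a replicate may therefore share a gradient. With the replicate block, 8 genes were higher and 1 lower on polysomes (Atp6ap2 and Ctsz were not called), beside 10.8% and 10.3% of all genes. In subpolysomal RNA 12 were higher and 1 lower, beside 11.7% and 11.9%, and in efficiency 0 and 0, beside 0.351% and 1.13%. Between the fractions 25 were higher and 1 lower in scramble cells, beside 31.5% and 28.4% of all genes. In eIF6 shRNA cells 26 were higher and 2 lower, beside 32% and 28.6%.

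Of the measured genes 5 had a probe not well above background on every array (Atp6ap1l, Atp6v1e2, Ctsa, Ctse and Ctsg), and the 11 genes below the filter have no value here. Atp6ap1l, Atp6v1e2, Ctse and Ctsg have none under the strictest filter, which asks for detection on all 16 arrays.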
